A study of Mus musculus with 21 samples.

Results

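The 36 genes described here encode the machinery that folds secreted and membrane proteins in the endoplasmic reticulum, together with the sensors and effectors of the unfolded protein response. They were chosen by symbol as a fixed list of this pathway, and all 36 were found among the 25239 gene rows of each of the 2 deposited tables of normalized counts. By role they comprise 6 genes of protein translocation, 8 chaperones and co-chaperones, 7 lectin chaperones and disulfide isomerases, 6 stress sensors and transcription factors, 3 feedback and cell death genes and 6 genes of endoplasmic reticulum-associated degradation. The study measured polyadenylated RNA by bulk sequencing in mouse choroid plexus and in hypothalamus, and compared mice carrying extra Ins2, one of the mouse insulin genes, in the choroid plexus with control mice. All mice were labelled wild type (WT) on the C57BL/6J strain background. The groups were 6 choroid plexus libraries labelled as overexpressing Ins2, 5 control choroid plexus libraries, 5 hypothalamus libraries from mice labelled as overexpressing Ins2 in the choroid plexus, and 5 control hypothalamus libraries. The controls of both tissues were labelled untreated, while the headers of the control hypothalamus columns carry the prefix GFP, so whether those mice received a control agent is not settled here. The labels used here give neither the way in which Ins2 was introduced nor the age of the mice. They also do not say that replicates are separate animals, so the p-values below measure the spread between these libraries only. Because insulin is itself a disulfide-bonded secreted protein, the comparison asks whether the extra Ins2 transcript was accompanied by a change in the transcripts of the folding machinery.

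A secreted protein enters the endoplasmic reticulum through the Sec61 channel, is kept soluble by BiP (the product of Hspa5) and its partners, has its disulfide bonds formed and shuffled by the protein disulfide isomerases, and is returned to the cytosol for degradation if it fails to fold. When unfolded protein accumulates, the membrane sensors IRE1 (Ern1), PERK (Eif2ak3) and ATF6 (Atf6) are released from BiP. IRE1 splices the Xbp1 messenger RNA, PERK slows translation and favours synthesis of ATF4, and ATF6 is cleaved to an active factor, after which chaperone, degradation and, under lasting stress, cell death genes are induced. The choroid plexus epithelium, which secretes transthyretin and other proteins into the cerebrospinal fluid, is a heavily secretory tissue.

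The promoters of several of these genes are known to carry the endoplasmic reticulum stress element, a CCAAT box followed by 9 bases of any kind and CCACG, which ATF6 recognises together with the general factor NF-Y. RefSeq promoter windows on build GRCm38.p6, from 250 bases before to 50 bases after the transcription start, were given for 30 of the 36 genes (not for Sec61a1, Ssr2, Hyou1, Manf, Atf6 and Derl1). The motif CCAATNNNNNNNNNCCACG, searched on both strands, stood in the windows of 8 of these 30 genes (26.7%), and in those of 37 of all 27025 genes with a window (0.137%). These 8 are shown because most of them encode the abundant chaperones on which the values below turn. Capitals mark the CCAAT and CCACG parts, or ATTGG and CGTGG where the motif lies on the other strand. Each sequence reads 5′ to 3′ along the strand of its gene.

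Hspa5, chr2:34772020-34772048, plus strand: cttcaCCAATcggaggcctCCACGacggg

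Hsp90b1, chr10:86705518-86705566, minus strand: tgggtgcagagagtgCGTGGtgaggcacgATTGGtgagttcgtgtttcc

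Hsp90b1, chr10:86705623-86705671, minus strand: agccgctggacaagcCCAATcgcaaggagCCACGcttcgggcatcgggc

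Dnajc3, chr14:118937812-118937860, plus strand: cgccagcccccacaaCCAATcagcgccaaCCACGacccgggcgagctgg

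Calr, chr8:84847060-84847108, minus strand: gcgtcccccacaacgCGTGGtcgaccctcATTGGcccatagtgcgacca

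Canx, chr11:50325785-50325833, minus strand: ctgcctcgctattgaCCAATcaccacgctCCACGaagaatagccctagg

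Pdia6, chr12:17266476-17266524, plus strand: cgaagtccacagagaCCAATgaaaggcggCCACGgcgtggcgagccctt

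Creld2, chr15:88819505-88819553, plus strand: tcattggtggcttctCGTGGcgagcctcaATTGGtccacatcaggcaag

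Syvn1, chr19:6046517-6046565, plus strand: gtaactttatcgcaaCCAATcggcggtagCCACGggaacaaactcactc

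The motif in Hspa5 ended 47 bases before the RefSeq start. The gene body in GENCODE begins further upstream, at position 34771970 of chromosome 2, so this motif lies inside it. The Hsp90b1 window carried 2 copies, one on each strand. A second form of the element, ATTGGNCCACG, was present in 2 of the 30 windows (6.67%), those of Dnajb11 and Herpud1, and in 0.0444% of all genes. The core TGACGTG, bound by ATF6 and XBP1, was found in 1 of 30 windows (3.33%), that of Hspa5, against 2.22% of all genes. The core TGATGNAA of sites bound by ATF4 and CHOP (the product of Ddit3) was found in 3 of 30 windows (10%), those of Trib3, Chac1 and Herpud1, against 4.51% of all genes. Herpud1 and Chac1 are given too because they were the members whose groups did not overlap in hypothalamus and in choroid plexus, respectively. Capitals again mark the fixed letters, with TGATGNAA read on the other strand in both genes.

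Herpud1, second form of the element, chr8:94386362-94386402, plus strand: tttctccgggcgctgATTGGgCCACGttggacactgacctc

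Herpud1, ATF4 and CHOP core, chr8:94386302-94386339, plus strand: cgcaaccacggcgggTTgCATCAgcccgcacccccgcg

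Chac1, ATF4 and CHOP core, chr2:119351034-119351071, plus strand: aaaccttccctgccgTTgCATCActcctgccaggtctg

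These matches describe letters only; no binding was measured in this study.

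The libraries held 25950069 to 36289667 gene-assigned reads in choroid plexus and 27368464 to 62062133 in hypothalamus. Values are counts divided by a size factor per library, computed separately for each tissue, so levels are compared only within a tissue. All 14 choroid plexus epithelium markers were detected in choroid plexus, with Ttr alone at 3458440 ± 152331 normalized counts (SD, n = 5) in controls, and all 16 hypothalamic peptide genes were detected in hypothalamus. Detection alone does not tell the tissues apart. No epithelium marker was at 0 in every hypothalamus library, and of the peptide genes only Crh was at 0 in every choroid plexus library. Ins2 had 387, 394, 466, 401 and 501 normalized counts in the control choroid plexus libraries and 676, 860, 870, 598, 1041 and 914 in the Ins2 libraries, with no overlap. Ins2 was thus 1.90 times control (95% interval 1.59 to 2.27, limma adjusted p = 0.00594). Its highest value, 1041, was far below the control mean of Ttr, 3458440, so little transcript was added beside the cargo already made. How much insulin protein was made cannot be told from RNA. In hypothalamus Ins2 was at 0 reads in 9 of 10 libraries. The only other choroid plexus gene that passed the adjusted test was Jchain, a plasma cell gene, at 4.57 ± 4.94 in controls (SD, n = 5) and 84.0 ± 56.1 with Ins2 (SD, n = 6; limma adjusted p = 0.0131). Of the 5 plasma and B cell markers tested there, 3 were below 0 on the log2 scale. Jchain alone had a limma unadjusted p under 0.05. The control 2 choroid plexus library stood apart in myelin genes, its summed level of 10 markers being 55432 against 2648 to 6080 in the other 10 libraries. Its sums of astrocyte markers (24349, second highest 18126) and hypothalamic peptide genes (1198, second highest 709) were also highest. Its sums of neuron markers (3173, second highest 3131) and of ependyma and tanycyte markers (6936, second highest 6793) barely exceeded the next library. Some results that rest on it are given with and without it, and the rest with all libraries only. In bulk tissue, fewer cells of a type and less RNA per cell cannot be told apart.

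Per kilobase of exon, the highest members in control choroid plexus were 4 chaperone and isomerase genes and the lowest were Ern1, Trib3 and Chac1. Length came from the merged exons of each gene in GENCODE M21. Calreticulin (Calr), the soluble lectin chaperone, led the members at 8184 normalized counts per kb in control choroid plexus. It was followed by Hspa5 (7961 per kb), by the HSP90 of this compartment, Hsp90b1 (6545 per kb), and by Pdia3, the isomerase that works with the lectin chaperones (6184 per kb). These 4 were in the top 1% of the genes tested in choroid plexus by level per kb, and 18 members were in the top 10%. At the other end stood the sensor Ern1 (110 per kb), Trib3 (18 per kb), a pseudokinase that restrains ATF4 and CHOP, and Chac1 (6.91 per kb), a glutathione-degrading enzyme induced through ATF4. Calr and Hspa5 did not differ beyond their spread, since the control ranges of 6708 to 10753 and 6743 to 10929 per kb overlapped. Of the 35 pairs of neighbours in this order, 9 had control ranges that did not overlap.

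In control hypothalamus the order was similar at the top, with Calr (4468 per kb), Canx, the membrane-bound lectin chaperone (4194 per kb), Hsp90b1 (4139 per kb) and Hspa5 (3634 per kb). No member was in the top 1% there and 12 were in the top 10%, and again 9 of 35 neighbouring pairs had control ranges apart. Ern1 was lowest at 22.7 per kb, close to Trib3 at 23.2 per kb. Chac1 stood at 154 per kb, above Derl2, Edem1 and Atf6 in mean, whereas in choroid plexus it was the lowest member. Summed over all 36 genes, the members took 0.754% ± 0.088 of gene-assigned reads in control choroid plexus (SD, n = 5) and 0.730% ± 0.068 with Ins2 (SD, n = 6). Single choroid plexus libraries ran from 0.683% to 0.905% in controls and from 0.6635% to 0.827% with Ins2. In hypothalamus the members took 0.439% ± 0.016 in controls and 0.420% ± 0.011 with Ins2 (SD, n = 5 each).

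**Figure D1:**
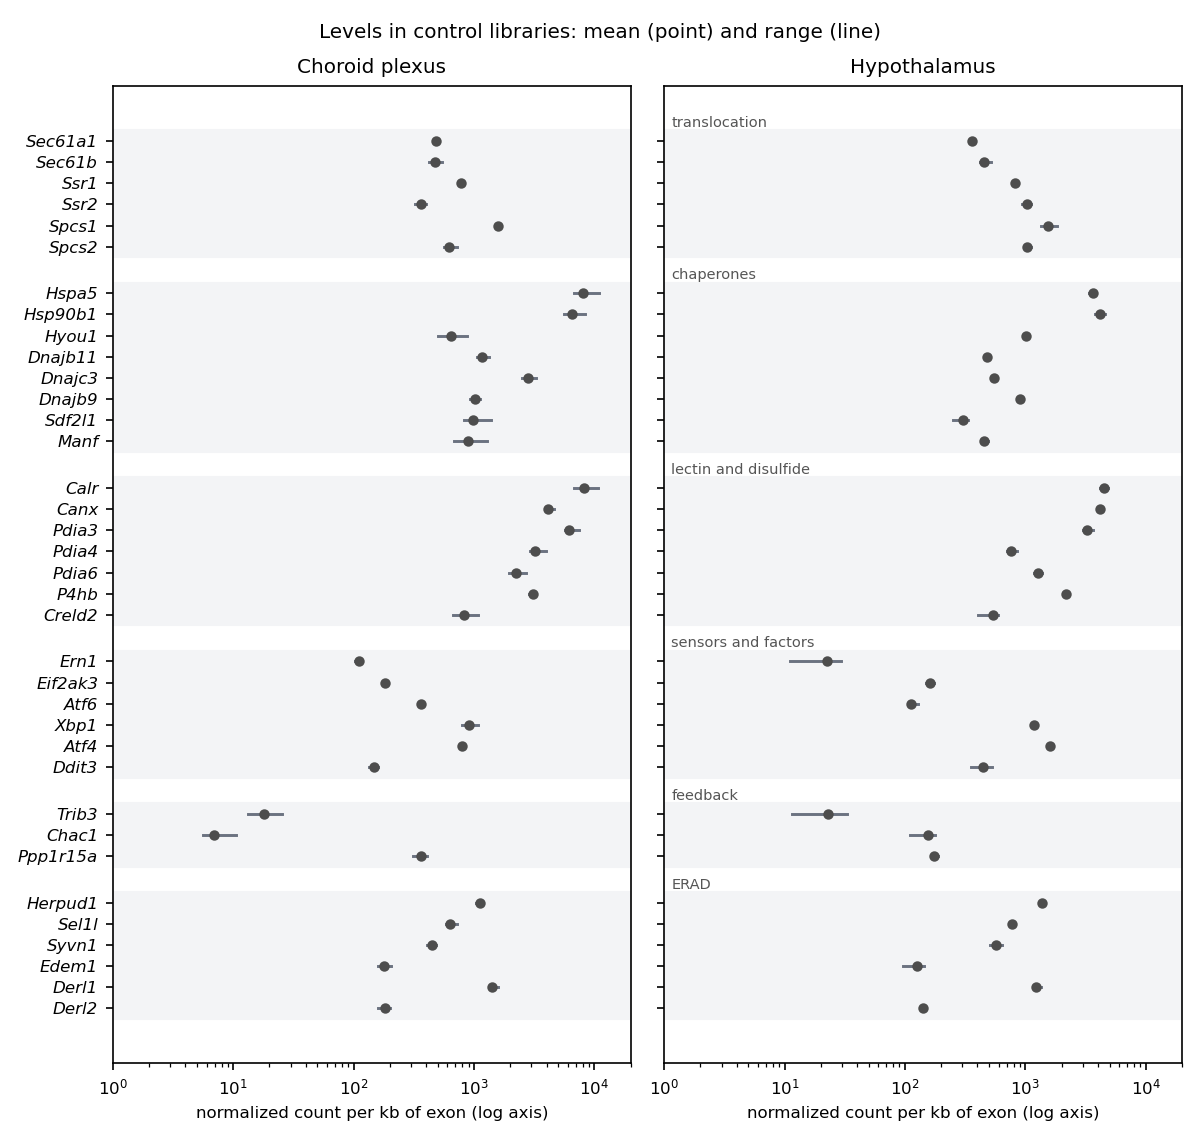
Level of each of the 36 genes in control libraries of choroid plexus (left) and hypothalamus (right), as normalized count per kb of exon on a log axis; points are means over 5 libraries and lines run from the lowest to the highest library. In choroid plexus Calr, Hspa5, Hsp90b1 and Pdia3 lie farthest right, while Ern1, Trib3 and, in choroid plexus, Chac1 lie toward the left.

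In choroid plexus, none of the folding or stress genes passed the test between Ins2 and control libraries. Of the 36 genes, 35 had a mean of at least 10 normalized counts and were tested, and 0 had a limma adjusted p under 0.05, where 0.0138% of all 14533 genes tested did (2 genes). The smallest adjusted p among them was 0.758. At an unadjusted p under 0.05, limma found 2 of 35 (5.71%), Dnajc3 and Atf6, both lower with Ins2, against 6.21% of all genes (3.67% lower and 2.54% higher). edgeR on the recovered read counts also called 0 of 35. DESeq2 called none either, but gave no adjusted p for members including Ddit3, Sdf2l1, Ppp1r15a and Ern1, which it could not call. Fold changes of the 35 were small, with log2 values from -0.23 to 0.19. The 95% intervals put the upper bound below 1.25 times control for 32 of 35 genes and the lower bound above 0.8 times control for 31 of 35. Trib3, the least abundant gene tested, had the widest interval, from 0.542 to 1.34 times control.

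The small differences leaned to lower values with Ins2, but this lean rested on 1 library. The log2 fold change was below 0 for 27 of 35 members (77.1%), against 51.6% of all genes, with a median of -0.05 against 0.00 over all genes. Without control 2, 16 of 35 were below 0 and the median was 0.00. No member had control and Ins2 libraries that did not overlap among the 35 tested, as did 0.626% of all genes.

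**Figure D2:**
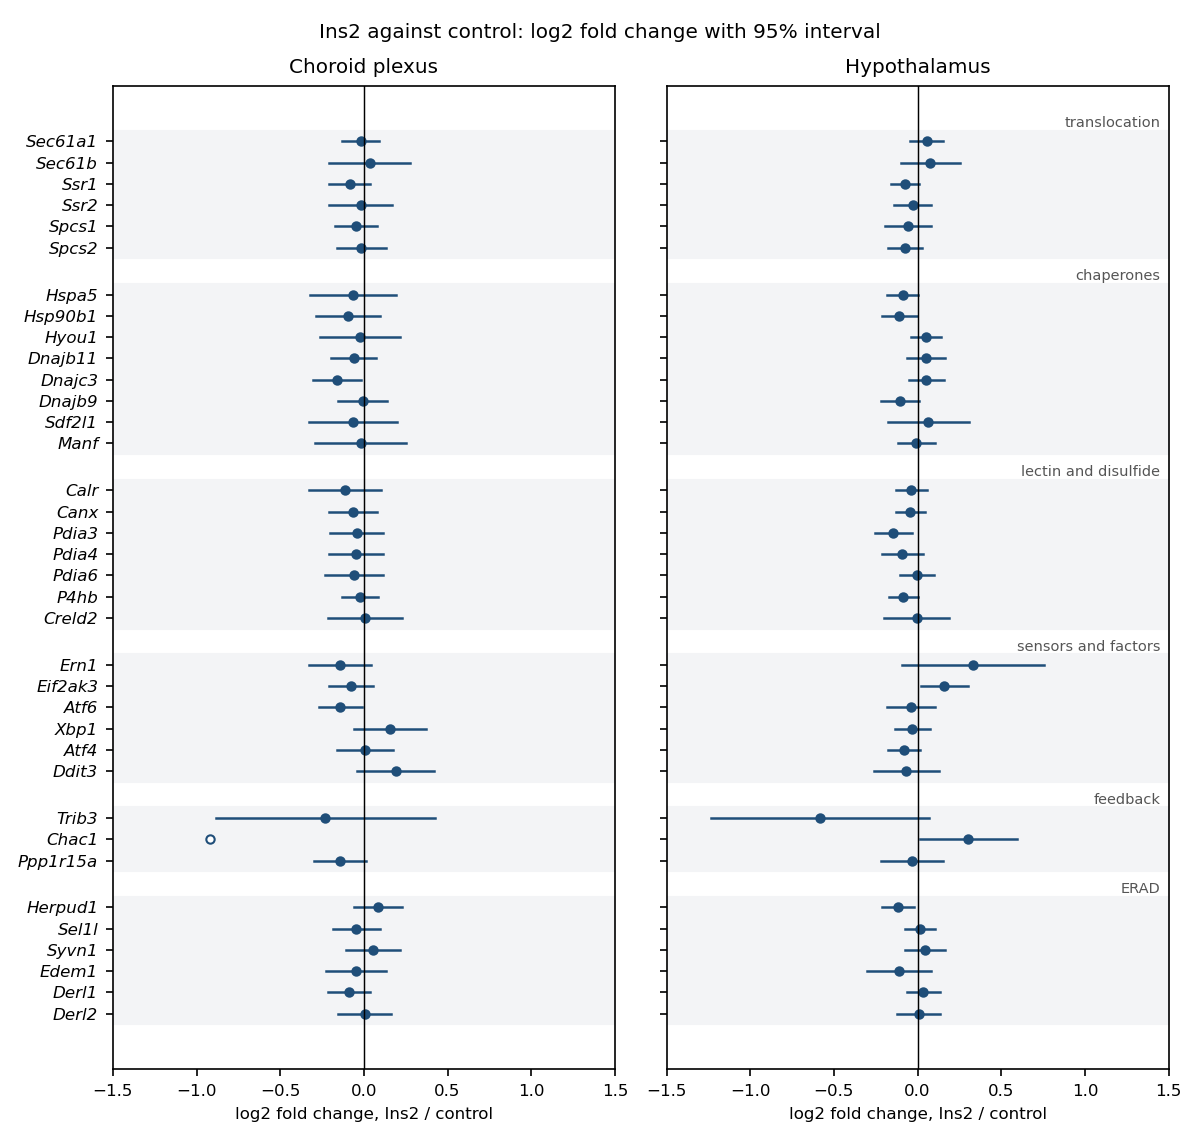
Log2 fold change of Ins2 against control libraries for the 36 genes in choroid plexus (left) and hypothalamus (right), with 95% intervals from limma; the open point for Chac1 in choroid plexus has no interval because its mean was under 10. Most points lie close to 0, from -0.23 to 0.19 for the 35 genes tested in choroid plexus.

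The 6 translocation genes had fold changes close to 1 in choroid plexus. Sec61a1 and Sec61b, subunits of the channel, were at 0.988 and 1.02 times control. Ssr1 and Ssr2, subunits of the translocon-associated complex, were at 0.943 and 0.986 times control, and Spcs1 and Spcs2, subunits of the signal peptidase that trims preproinsulin among other precursors, at 0.968 and 0.990. Of the 6, 5 were below 0 on the log2 scale and the median log2 fold change was -0.02. Overlap with exons of genes on the opposite strand was 16.3% of the exon bases of Spcs1, 12.8% for Ssr2 and 8.16% for Sec61a1, and the strand setting of the counting is not given in the sources used here.

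Among the chaperones, Hspa5 (chr2:34771970-34777547, GRCm38, plus strand) showed a spread between libraries far larger than the difference between groups. The control choroid plexus libraries held 28518, 46219, 32632, 31725 and 29240 normalized counts of Hspa5, and the Ins2 libraries ran from 26769 over a median of 28950 to 41147. Control 2 was highest and the groups overlapped throughout. The means were 33667 ± 7220 in controls (SD, n = 5) and 32167 ± 6285 with Ins2 (SD, n = 6), a ratio of 0.957 (95% interval 0.801 to 1.14, limma adjusted p = 0.960). Without control 2 the log2 fold change turned from -0.06 to 0.06.

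Hsp90b1 (chr10:86690209-86705509, minus strand), which folds a narrower set of clients than BiP, gave 22555, 33886, 26689, 24109 and 24702 in controls and 21719 to 28290 with a median of 23619 with Ins2. It was at 0.937 times control (95% interval 0.821 to 1.07, limma adjusted p = 0.913), with the groups overlapping, and 10.3% of its exon bases lie opposite another gene's exons. Without control 2 the log2 fold change of Hsp90b1 went from -0.09 to -0.0006. Dnajc3 (chr14:118937976-118981697, plus strand), a BiP co-chaperone also known as an inhibitor of PERK, had the smallest unadjusted p of the members in choroid plexus. Its values were 12839, 16959, 14998, 13590 and 14191 in controls and 11824 to 14433 with a median of 12795 with Ins2. The Ins2 libraries lay lower on the whole, but 3 control libraries fell within their range. Dnajc3 was at 0.895 times control (95% interval 0.811 to 0.986; limma p = 0.0277, adjusted p = 0.758; exact permutation p = 0.0628).

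Sdf2l1, a stress-induced partner of BiP, had 908, 1526, 1012, 1006 and 1002 normalized counts in controls and 835 to 1365 with a median of 988 with Ins2. Dnajb9, a co-chaperone that returns IRE1 to its BiP-bound state, had 2525, 2874, 2583, 2592 and 2371 in controls and 2283 to 2979 with a median of 2538 with Ins2. Manf, a secreted stress-induced protein, had 2410, 4539, 2857, 3107 and 2913 in controls and 2518 to 4022 with a median of 2965 with Ins2. In all 3 the groups overlapped, and in each the highest or second highest library was control 2. The fold changes were 0.956 for Sdf2l1, 0.994 for Dnajb9 and 0.986 for Manf, and without control 2 all 3 turned positive on the log2 scale (0.06, 0.03 and 0.12). The remaining chaperones were at 0.982 (Hyou1, a large partner of BiP) and 0.958 (Dnajb11) times control. All 8 chaperones were below 0 with all libraries in, with a median log2 fold change of -0.06. The exon overlap with genes on the other strand was 8.85% for Manf and 0.549% for Dnajb9.

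The lectin chaperones and disulfide isomerases showed the same small size of difference. Creld2, an isomerase known as a sensitive marker of stress in this compartment, had 905, 1465, 1001, 1183 and 1091 normalized counts in controls and 1002 to 1348 with a median of 1083 with Ins2. Its groups overlapped and its fold change was 1.01 (95% interval 0.862 to 1.17, limma adjusted p = 0.995). Without control 2 the log2 fold change of Creld2 went from 0.01 to 0.11. Calr was at 0.924 and Canx at 0.955 times control. The other isomerases lay between 0.960 (Pdia6) and 0.984 (P4hb), with Pdia4 at 0.967 and Pdia3 at 0.970. Of these 7 genes, 6 were below 0 with all libraries in, with a median log2 fold change of -0.05.

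The sensors and transcription factors lay on both sides of 1, with 3 of 6 below. Xbp1 (chr11:5520659-5525893, plus strand), the factor activated by IRE1 splicing, had 2709, 3265, 2646, 2602 and 3501 normalized counts in control choroid plexus and 2766 to 4425 with a median of 3207 with Ins2. Library Ins2 2 was highest, and the 2 upper control libraries lay among the Ins2 libraries. Xbp1 was at 1.12 times control (95% interval 0.961 to 1.29, limma adjusted p = 0.863), and gene counts do not separate its spliced from its unspliced form. Plasma cells express Xbp1 strongly, and of 17 plasma and B cell markers 11 were in the table and 5 reached a mean of 10. Their summed level was 410 to 614 in controls and 413 to 837 with Ins2, and no listed marker in the table was at 0 in every library. Of the 5 tested, 2 were above 0 with Ins2 and 3 below 0 on the log2 scale. Jchain in Ins2 libraries 1 to 6 was 160, 35.5, 46.1, 102, 134 and 26.3. Xbp1 in the same libraries was 3338, 4425, 3194, 2855, 3221 and 2766. The part of these cells in the Xbp1 value was not tested.

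Atf6 (chr1:170704674-170867771, minus strand) had 3170, 3516, 3409, 3373 and 3294 normalized counts in controls and 2812 to 3567 with a median of 2995 with Ins2. It was lower than every control library in all Ins2 libraries but Ins2 2, giving 0.907 times control (95% interval 0.831 to 0.991; limma p = 0.0318, adjusted p = 0.767; exact permutation p = 0.0498). Ern1 (chr11:106394650-106487852, minus strand) had 836, 880, 958, 922 and 898 in controls and 689 to 1011 with a median of 800 with Ins2. Both the lowest and the highest value of Ern1 were Ins2 libraries, and its ratio was 0.905 (95% interval 0.795 to 1.03, limma adjusted p = 0.844). Eif2ak3, the gene of the third sensor PERK, was at 0.948 times control. The 3 sensor genes were thus each below control in mean, none past the adjusted threshold.

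Atf4 (chr15:80255184-80257541, plus strand), whose product is controlled mainly at translation, had 1907, 1840, 1761, 1843 and 1991 in controls and 1580 to 2150 with a median of 1937 with Ins2. The Ins2 libraries spread to both sides of the controls, and the ratio was 1.01 (95% interval 0.895 to 1.13). Ddit3 (chr10:127290774-127296288, plus strand), the gene of the pro-apoptotic factor CHOP, had 266, 246, 228, 271 and 248 in controls and 242 to 351 with a median of 284 with Ins2. Although 4 of 6 Ins2 libraries lay above every control, the ratio of 1.14 (95% interval 0.972 to 1.34) did not pass the test (limma adjusted p = 0.839; exact permutation p = 0.0563). Opposite-strand exons cover 4.73% of the exon bases of Ddit3.

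Of the feedback genes, Ppp1r15a (chr7:45522916-45526268, minus strand) encodes the phosphatase subunit that reverses the translational block set by PERK. It had 1040, 906, 1023, 1199 and 1125 in controls and 876 to 1022 with a median of 962 with Ins2. Control 2, at 906, lay inside the Ins2 range and the other 4 controls lay above it. The ratio was 0.905 (95% interval 0.812 to 1.01, limma adjusted p = 0.815). Trib3 was at 0.852 times control. Chac1 (chr2:119351229-119354381, plus strand), singled out after its values were seen, was scarce in choroid plexus and had a mean under 10, so it was not in the adjusted test. Its values were 9.27, 10.3, 17.4, 9.90 and 9.71 normalized counts in controls and 1.88 to 7.44 with a median of 6.35 with Ins2. Every Ins2 library lay below every control library. Groups were apart for 0.626% of the genes tested, but the share among genes as scarce as Chac1 was not counted. The Chac1 ratio of 0.529 had an exact permutation p of 0.00216, the smallest that the 462 relabellings can give. When limma was run with no filter on low values, no member passed, the smallest adjusted p being 0.811. At these levels a library's value rests on a few reads.

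**Figure D3:**
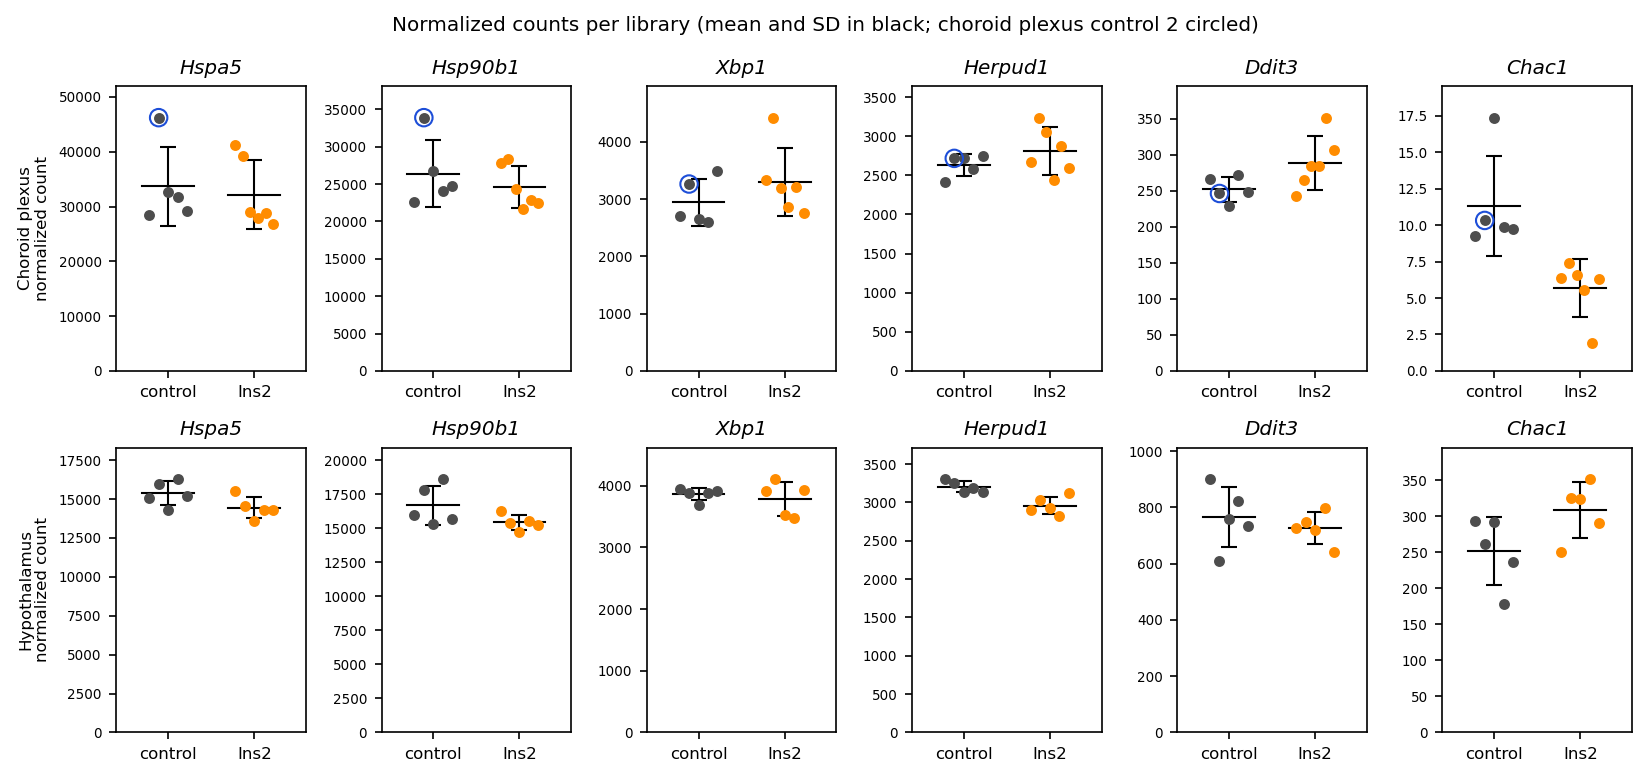
Normalized counts of 6 genes in every library of choroid plexus (top) and hypothalamus (bottom), with the mean and SD of each group in black and control 2 of choroid plexus circled; scales differ between panels and start at 0. The groups overlap for Hspa5, Hsp90b1, Xbp1 and Ddit3 in both tissues, and lie apart for Chac1 in choroid plexus and for Herpud1 in hypothalamus.

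Among the degradation genes, Herpud1 (chr8:94386438-94395377, plus strand), a strongly stress-inducible membrane protein of the retrotranslocation complex, had 2418, 2717, 2725, 2579 and 2752 in controls and 2439 to 3237 with a median of 2773 with Ins2. The groups overlapped and the ratio was 1.06 (95% interval 0.961 to 1.17, limma adjusted p = 0.895). The ubiquitin ligase gene Syvn1 was at 1.04 and its adaptor Sel1l at 0.969 times control. The retrotranslocation channel genes Derl1 and Derl2 were at 0.941 and 1.003, and Edem1, which marks misfolded glycoproteins for removal, at 0.967. Of these 6 genes, 3 were below 0, with a median log2 fold change of -0.02.

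In hypothalamus, which lies outside the tissue given Ins2, no member passed the adjusted test either. All 36 genes were tested and 0 had a limma adjusted p under 0.05, as did 0% of all 16363 genes tested, and the smallest adjusted p among members was 0.384. At an unadjusted p under 0.05, limma found 6 of 36 (16.7%), against 9.92% of all genes. Lower with Ins2 were Pdia3, Herpud1, Hsp90b1 and P4hb, 4 of 36, against 4.08% of all genes. Higher were Eif2ak3 and Chac1, 2 of 36, against 5.85% of all genes. edgeR called 0 of 36. DESeq2 called none either, but gave no adjusted p for members including Ddit3, Sdf2l1, Creld2, Eif2ak3 and Chac1, which it could not call. The log2 fold change was below 0 for 23 of 36 members (63.9%), against 49.7% of all genes, with a median of -0.03 against 0.00. Libraries were closer to one another here, with a median coefficient of variation of 5.57% over the members against 10.1% in choroid plexus. Upper 95% bounds lay below 1.25 times control for 34 of 36 genes and lower bounds above 0.8 for 35 of 36.

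All 7 lectin chaperones and disulfide isomerases were below 0 in hypothalamus, with a median log2 fold change of -0.04. Pdia3 (chr2:121413775-121438687, plus strand) had 10301, 10640, 9431, 11428 and 9547 normalized counts in controls and 9734, 9269, 8479, 9141 and 9730 with Ins2. The lowest 2 controls lay among the Ins2 libraries. Pdia3 was at 0.904 times control (95% interval 0.838 to 0.975; limma p = 0.0119, adjusted p = 0.384; exact permutation p = 0.0635). P4hb, the founding disulfide isomerase, was at 0.943 (limma p = 0.0497, adjusted p = 0.503; exact permutation p = 0.0238). Creld2 had 549, 793, 723, 775 and 811 in controls and 777, 728, 692, 716 and 690 with Ins2, with control 1 lowest and the groups overlapping, for a ratio of 0.996. The other isomerases were at 0.938 (Pdia4) and 0.997 (Pdia6), and the lectins Calr and Canx at 0.975 and 0.970 times control.

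Herpud1 was the only member whose hypothalamus groups did not overlap, where 1.5% of all genes had groups apart. It had 3303, 3255, 3139, 3182 and 3140 normalized counts in controls and 2898, 3031, 2922, 2824 and 3118 with Ins2. The closest libraries, 3139 and 3118, differed by less than the SD within either group. The means were 3204 ± 72.9 and 2959 ± 116 (SD, n = 5 each), a ratio of 0.923 (95% interval 0.864 to 0.986; limma p = 0.0199, adjusted p = 0.423; exact permutation p = 0.00794, the smallest that 252 relabellings can give). The other degradation genes were at 1.01 (Sel1l), 1.03 (Syvn1), 0.926 (Edem1), 1.02 (Derl1) and 1.005 (Derl2) times control.

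The hypothalamic chaperones were divided, with 4 of 8 below 0. Hspa5 had 15040, 15978, 14319, 16277 and 15224 in controls and 15501, 14557, 13585, 14319 and 14274 with Ins2. Hsp90b1 had 16004, 17802, 15332, 18605 and 15697 in controls and 16235, 15404, 14697, 15561 and 15229 with Ins2. In both genes the 2 highest libraries were controls 2 and 4, and the groups overlapped. Their ratios were 0.940 for Hspa5 (limma adjusted p = 0.517) and 0.927 for Hsp90b1 (limma p = 0.0400, adjusted p = 0.483; exact permutation p = 0.111). Dnajb9 had 2352, 2419, 2233, 2356 and 2188 in controls and 2008, 2087, 2134, 2362 and 2148 with Ins2, a ratio of 0.929 (limma adjusted p = 0.532). All Ins2 libraries but Ins2 4 lay below every control in Dnajb9. Sdf2l1 had 277, 373, 358, 355 and 324 in controls and 380, 392, 391, 320 and 286 with Ins2, a ratio of 1.04. Manf had 1538, 1599, 1648, 1710 and 1557 in controls and 1572, 1654, 1586, 1584 and 1600 with Ins2, a ratio of 0.994. All Ins2 libraries of Manf lay within the control range. In Sdf2l1, 3 of the 5 Ins2 libraries lay above every control and the others lay among the controls. Hyou1, Dnajb11 and Dnajc3 were at 1.03, 1.04 and 1.04 times control.

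Of the sensors in hypothalamus, Eif2ak3 (chr6:70844515-70905245, plus strand) had 997, 904, 1059, 950 and 986 in controls and 1067, 1082, 1014, 1098 and 1213 with Ins2. The Ins2 libraries lay above the controls except for Ins2 3, which lay below control 3. The ratio was 1.12 (95% interval 1.01 to 1.23; limma p = 0.0272, adjusted p = 0.446; exact permutation p = 0.0159), and 8.05% of the exon bases of Eif2ak3 face exons of a gene on the other strand. Ern1, scarce in this tissue, was at 1.26 (95% interval 0.936 to 1.69) and Atf6 at 0.973 times control. Xbp1 had 3940, 3877, 3694, 3885 and 3920 in controls and 3910, 4107, 3519, 3471 and 3924 with Ins2, a wider spread with Ins2 at nearly the same mean (ratio 0.978). Atf4 had 3635, 3723, 3708, 3944 and 3711 in controls and 3690, 3537, 3279, 3602 and 3609 with Ins2. Control 1 was the only control of Atf4 below an Ins2 library, at a ratio of 0.946 (limma adjusted p = 0.583; exact permutation p = 0.0159). Ddit3 had 901, 611, 759, 822 and 734 in controls and 726, 748, 718, 797 and 643 with Ins2, with overlapping groups and a ratio of 0.955. The exact tests of single members are unadjusted, and 36 were run in each tissue.

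Chac1 in hypothalamus had 293, 261, 292, 179 and 237 in controls and 251, 326, 325, 352 and 292 with Ins2. It was thus higher in mean with Ins2, at 1.23 times control (95% interval 1.01 to 1.51; limma p = 0.0405, adjusted p = 0.483; exact permutation p = 0.0873), while its choroid plexus ratio was 0.529. Whether these differ was not tested, since Chac1 entered the fit of 1 tissue only. Trib3 was at 0.668 (95% interval 0.426 to 1.05) and Ppp1r15a at 0.978 times control. The translocation genes lay between 0.949 (Spcs2) and 1.05 (Sec61b) times control.

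Whether the effect of Ins2 differed between the tissues was tested by subtracting the choroid plexus from the hypothalamus log2 fold change of each gene. Of the 35 members tested in both tissues, 0 had an adjusted p under 0.05, against 0.107% of all 13997 genes, and 4 had an unadjusted p under 0.05 (11.4%), against 10.6% of all genes. Those 4 were Eif2ak3 (-0.08 in choroid plexus, 0.16 in hypothalamus, adjusted p = 0.336), Dnajc3 (-0.16 and 0.05, adjusted p = 0.353), Herpud1 (0.09 and -0.12, adjusted p = 0.380) and Ern1 (-0.14 and 0.33, adjusted p = 0.457). The p-values are from the limma standard errors of both tissues. The limma fit of both tissues at once also called 0 members.

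The members varied together between choroid plexus libraries, independently of the Ins2 contrast. For each gene, the group mean was subtracted on the log2 scale and the deviations of the 11 libraries were correlated with those of Hspa5, with exact permutation of the Hspa5 values within each group. No gene passed a Benjamini-Hochberg adjusted permutation p of 0.05 among 14532 (0%), the smallest being 0.168. At an unadjusted permutation p under 0.05 there were 19 of 34 members, against 8.17% of all genes. The median r over the 34 members was 0.74, against 0.02 over all genes. Of the 10 genes with r above 0.9 (0.0688% of all), 5 were members. The highest of all genes was Pdia4, an isomerase of the BiP complex, with r = 0.991 and rho = 0.982 over the 11 libraries (permutation p = 3.47e-05 and 5.79e-05). The next were Ero1lb (0.954), the oxidase that recharges the isomerases, Hsp90b1 (0.954), Hyou1 (0.945), Pkmyt1 (0.940), Chid1 (0.933), Zdhhc9 (0.930), Pdia3 (0.926), Calr (0.905) and Mpp2 (0.904).

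This shared variation was largest in 3 libraries. Control 2, Ins2 1 and Ins2 2 held 39202 to 46219 normalized counts of Hspa5, and the other 8 held 26769 to 32632. The same 3 were the most deeply sequenced of the tissue, at 34892985, 32214808 and 36289667 reads. Over the 11 libraries the deviations of Hspa5 followed log2 reads per library with r = 0.848 (permutation p = 0.00679) and rho = 0.682 (permutation p = 0.0264), and r was 0.672 without the 2 libraries farthest from the median depth. Markers of other cell types also differed among these libraries. The summed level of the 18 macrophage markers, all with a mean of at least 10 and none at 0 in every library, was 1708 to 6426 in controls and 3664 to 8763 with Ins2. Its 2 highest values were those of Ins2 1 (8763) and Ins2 2 (7463), and control 2 had 4566. Ins2 1 also had the highest plasma and B cell sum (837), and control 2 the highest myelin sum (55432, against 2648 to 6080 in the other 10 libraries). The part of depth and of these cells in the correlations was not tested. Over the remaining 8 libraries, 4 of each group, the median r of the members with Hspa5 was 0.52 against 0.01 over all genes. There, 4 of 34 members had an unadjusted permutation p under 0.05, against 7.56% of all genes, and no gene passed adjustment. Pdia4 stayed high over these 8 (r = 0.969, rho = 0.929, permutation p = 0.00174, the smallest that 576 orders can give). Hsp90b1 had r = 0.728 and Calr 0.714 there, while Xbp1 turned from 0.572 to -0.16.

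By role, the chaperones (median r 0.86) and the lectins and isomerases (0.88) followed Hspa5 most closely over the 11 choroid plexus libraries, and the degradation genes had a median of 0.77. The translocation genes had a median of 0.28, with Spcs2 at 0.860 and Sec61b at -0.06. The sensors and factors had a median of 0.01, from 0.572 for Xbp1 to -0.58 for Ddit3. Of the 34 members 6 were negative, namely Trib3 (-0.66), Ddit3 (-0.58), Ppp1r15a (-0.53), Atf4 (-0.32), Ern1 (-0.11) and Sec61b. Over the 8 libraries Trib3, Ddit3, Ppp1r15a and Atf4 stood at 0.05, -0.20, -0.17 and -0.52, and the medians of the chaperones and of the lectins and isomerases were 0.56 and 0.68. Without control 2 alone, 21 of 34 members had r above 0.5, against 8.94% of all genes, and the median r was 0.66, against 0.00 over all genes. With all 11 libraries scaled to equal totals the median was 0.72. The r of Sdf2l1 depended on the libraries used. It fell from 0.749 to 0.03 when control 2 and Ins2 1, the 2 libraries farthest from the median of Hspa5, were left out. Over the 8 libraries, which lack Ins2 2 as well, it was 0.517 (rho = 0.667).

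**Figure D4:**
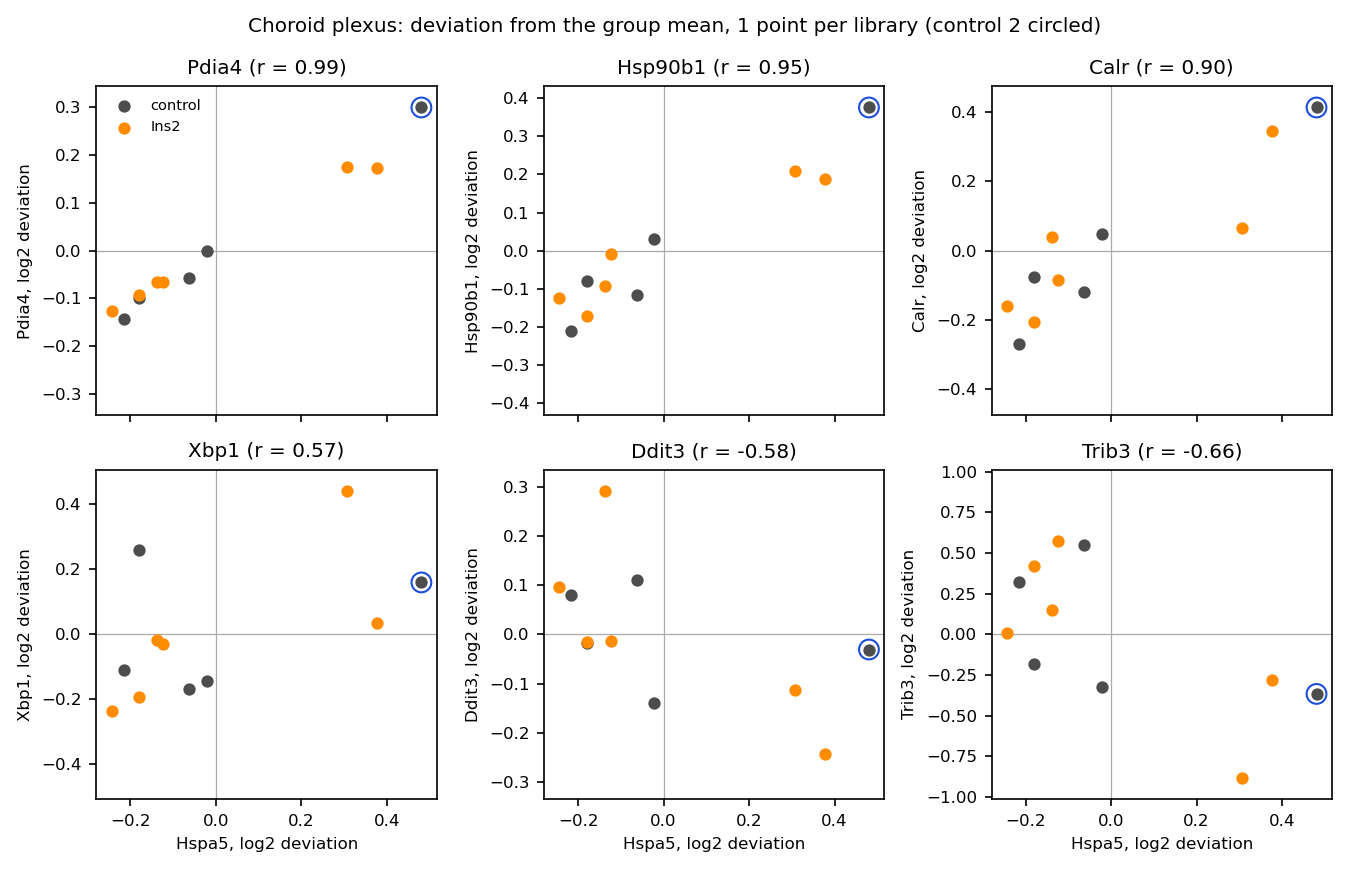
Deviation of 6 genes from their group mean against that of Hspa5 in the 11 choroid plexus libraries (log2 scale on both axes, 1 point per library, control 2 circled). Pdia4 and Hsp90b1 line up with Hspa5, and 3 libraries lie apart at the right in every panel, where Ddit3 and Trib3 are at or below their group means.

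The 7 members other than Hspa5 with an endoplasmic reticulum stress element in the promoter window shown above had a median r with Hspa5 of 0.86 in choroid plexus, from 0.273 (Syvn1) to 0.954 (Hsp90b1). The 21 members with a window but no match had a median of 0.57, from -0.66 (Trib3) to 0.991 (Pdia4). The ranges overlap, and Pdia4, the gene closest to Hspa5, had no match in its window. Between Ins2 and control choroid plexus, the 8 genes with the element had a median log2 fold change of -0.06 and the 21 without one -0.05. These values are a description, since the same libraries and a shared pathway lie behind all of them.

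In hypothalamus the shared variation was narrower. Over its 10 libraries, no gene passed the adjusted permutation test with Hspa5 (0% of 16362, smallest adjusted p 0.801). At an unadjusted permutation p under 0.05 there were 8 of 35 members, against 5.92% of all genes, and the median r of the members was 0.20 against 0.00. No member was among the 7 genes with r above 0.9 (0.0428% of all). The lectins and isomerases followed Hspa5 there too, with a median r of 0.81, led by P4hb (r = 0.897, rho = 0.818, permutation p = 0.00222 and 0.0101). Hsp90b1 was at 0.893, Pdia6 at 0.854, Pdia3 at 0.832 and Calr at 0.808. Hyou1, which followed Hspa5 closely in choroid plexus, had r = -0.42, and Chac1 was lowest at -0.73. Atf4 was positive at 0.746, opposite to its sign in choroid plexus. The r of Hspa5 with depth was negative here (-0.24, rho -0.39, permutation p = 0.520 and 0.282). The 8 genes above the members in this tissue were Dhx15 (0.933), C030005K06Rik (0.929), Decr1 (0.926), Nudcd1 (0.925), Tjp1 (0.919), Kdm5a (0.907), Panct2 (0.904) and Tpgs2 (0.897).

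**Figure D5:**
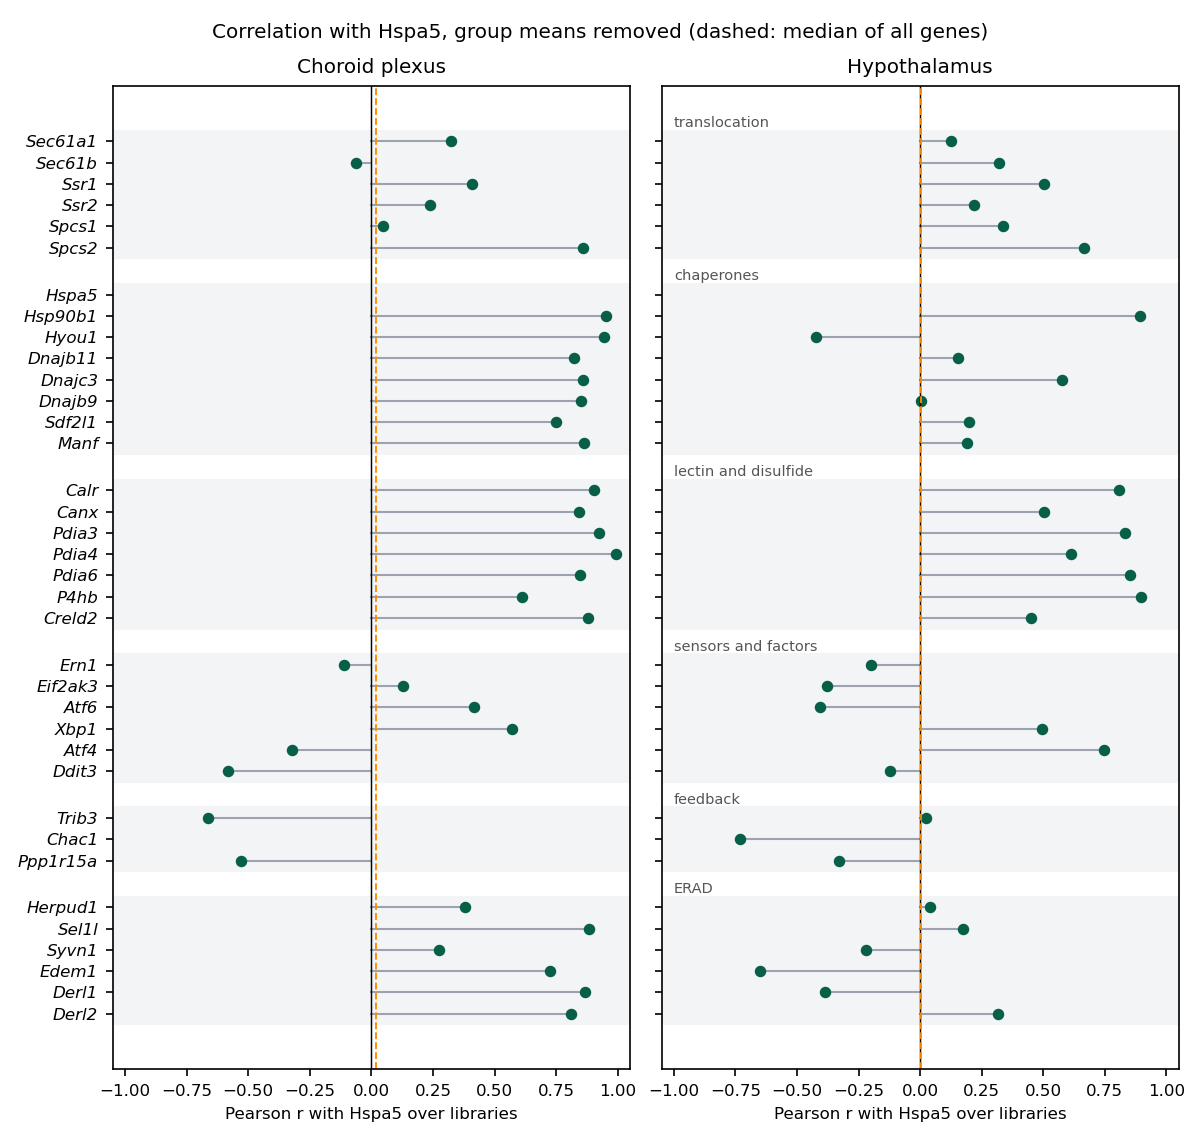
Pearson r of each member with Hspa5 after removal of group means, over 11 choroid plexus libraries (left) and 10 hypothalamus libraries (right); the dashed line is the median of all genes. Chaperones, lectins and isomerases lie far to the right in choroid plexus, and in hypothalamus mainly the lectins and isomerases do.

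Within the 6 Ins2 choroid plexus libraries, no relation between a member and the level of Ins2 was detected. No gene passed the adjusted permutation test. The smallest p that the 720 orders can give is 0.00139, so after adjustment over 14532 genes a gene could pass only if very many others reached that p too. At an unadjusted permutation p under 0.05 there were 0 of 35 members and 2.26% of all genes (328 genes). The median r of the members with Ins2 was 0.03 against 0.00 over all genes, and 14 of 35 were below 0. Hspa5 had r = -0.25 (rho = -0.31, permutation p = 0.674 and 0.564). The highest were Sec61a1 (r = 0.684, permutation p = 0.129) and Ddit3 (r = 0.671, rho = 0.829, permutation p = 0.135 and 0.0583). For Ddit3, r was 0.972 in the 4 libraries left without Ins2 4 and Ins2 1, the farthest from the median of Ins2. Over 4 points r swings widely in either direction. In the same 4 libraries Sec61a1 stood at 0.761, while Eif2ak3 went from 0.033 to -0.953 and Dnajc3 from -0.176 to -0.851. These values do not show that the members are unrelated to the level of Ins2.

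Other genes, of this pathway and of related processes, came from lists of the translocon, glycosylation, disulfide formation, degradation, ATF4 and CHOP targets, stress transducers, vesicle transport and cytosolic heat shock. They gave 0 adjusted calls by limma in either tissue. Together with the secreted cargo, edgeR called 0 of 222 such genes in choroid plexus and 0 of 226 in hypothalamus, and DESeq2 called 0 and 1, the 1 being Srp54a. Genes to which DESeq2 gave no adjusted p could not be called by it. In choroid plexus, 3 of 29 further genes of the signal recognition particle and translocon had an unadjusted p under 0.05, all higher with Ins2, against 2.54% of all genes, the first being Emc2 at 1.13 times control (limma adjusted p = 0.729). Of 30 further degradation genes 2 were lower, against 3.67% of all genes, the first being Erlec1, a lectin that recognises trimmed glycans, at 0.912. Of 32 ATF4 and CHOP targets 2 were lower, the first being Vldlr at 0.917, and 16 of 32 were below 0, against 51.6% of all genes. No gene reached an unadjusted p under 0.05 among 18 of glycosylation (Magt1 had the smallest p, ratio 0.906), 29 of disulfide and proline isomerisation (Cdnf, 1.26), 19 stress transducers (Mbtps1, the protease that cleaves ATF6, 0.932), 30 of vesicle transport (Mia3, 0.932) and 18 of cytosolic heat shock (Hsph1, 1.10). Of the 18 cytosolic heat shock genes 14 were above 0, where 51.6% of all genes were below, with a median log2 fold change of 0.03.

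Of 17 genes for cargo that these cells normally secrete or carry at their surface, 16 were below 0 with a median log2 fold change of -0.08, while 51.6% of all genes were below 0. The count was 14 of 17 (median -0.06) without control 2. It was also 14 of 17 (median -0.06) with libraries scaled to equal totals, where 44.0% of all genes were below 0. Both alternatives were chosen after the data were seen. The first was F5, coagulation factor V, at 58756 ± 4720 in controls (SD, n = 5) and 49940 ± 4815 with Ins2 (SD, n = 6). Its ratio was 0.849 (95% interval 0.766 to 0.941; limma adjusted p = 0.528). Ttr, the most abundant of them, was at 1.01 times control.

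In hypothalamus, 6 of 29 further translocon genes were lower at an unadjusted p under 0.05, against 4.08% of all genes, and 22 of 29 were below 0, against 49.7% of all genes. The first, Srp54a, a subunit of the signal recognition particle, was at 7661 ± 450 in controls and 6644 ± 254 with Ins2 (SD, n = 5 each). Its ratio was 0.868 (95% interval 0.812 to 0.928; limma adjusted p = 0.309) and its groups did not overlap. Srp54a has near-identical copies, of which Srp54b stood at 0.960, so the split of reads between them is uncertain. Of 30 further degradation genes 3 were higher and 1 lower, the first being the ubiquitin-conjugating enzyme gene Ube2j2 at 1.34 (limma adjusted p = 0.326). The first gene of each remaining list was Uggt1 (1.09), Selenof (0.914), Psat1 (0.937), Nfe2l2 (0.905), Sec31a (1.06), the heat shock gene Hspa8 (0.920) and, among secreted cargo, Igfbp2, which encodes a binding protein of insulin-like growth factors. Igfbp2 was at 222 ± 89.2 in controls and 399.5 ± 236 with Ins2 (SD, n = 5 each), a ratio of 1.70 (95% interval 1.17 to 2.47; limma adjusted p = 0.374), and its groups overlapped. The 9 fibroblast markers, each with a mean of at least 10, summed to 4250 to 5187 in controls and to 4060 to 9052 with Ins2. The 2 highest sums were those of Ins2 1 (9052) and Ins2 5 (7002), the same 2 libraries that were highest in Igfbp2 (808 and 399), and the part of these cells in the Igfbp2 value was not tested. In total, 1 of 19 glycosylation genes was higher, 1 of 29 isomerase genes lower, 1 of 18 heat shock genes lower, and 2 of 17 cargo genes higher and 1 lower. None of the 32 ATF4 and CHOP targets, 21 transducers or 31 transport genes reached an unadjusted p under 0.05.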

How the data were processed

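Polyadenylated RNA of 11 choroid plexus and 10 hypothalamus libraries was sequenced; per the submitters' processing notes, HISAT2, featureCounts and DESeq2 were used with builds GRCm38 and mm10, without stated versions. The deposited signal values are gene counts that the authors divided by a DESeq2 size factor per library, 1 table per tissue. Within a tolerance of 0.02, 100% of values were whole multiples of what 1 read is worth, so read counts and depth were recovered. Total counts were 25950069 to 36289667 per choroid plexus library and 27368464 to 62062133 per hypothalamus library; 3 counts, the limit that a count of 0 allows, bound a gene listed at 0. All table columns were assigned to samples.

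Each tissue was fitted over all genes with a mean of at least 10 using limma 3.58.1 (R 4.3.3; trended eBayes) on log2(value + 1), which understates changes of low genes, with Benjamini-Hochberg adjustment at 0.05, two-sided. Folds and intervals are on that scale. Alternatives were pseudocounts of 0.5 and 5, a minimum mean of 50, no filter, edgeR 4.0.16 and DESeq2 1.42.0 on recovered counts, equal totals, array weights, a replicate block and leaving out each library. Scripts were tested on simulated data. Tissue differences used Welch-Satterthwaite degrees of freedom. Single-gene permutation tests were exact and two-sided.

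Values by library are given for a fixed set of 10 members and, in each tissue, for the 5 members with the smallest p. For these members the choroid plexus Ins2 libraries are summarised by lowest value, median and highest value. Of each other list the gene with the smallest p is named, and the 10 genes closest to Hspa5. Members and lists were chosen with earlier results of these data known. Promoter windows came from RefSeq (GRCm38.p6) and exon lengths from GENCODE M21; 98.2% and 98.1% of tested genes had a length.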

Additional observations from a re-analysis of the deposited data

Results flagged for a closer look

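Within groups of 5 or 6 libraries, 11 of 144 tested groups of member values had 1 library far from the rest by Dixon's criterion, which chance meets in about 5% of groups. In choroid plexus, 4 of them were control 2, the library high in myelin markers and the second in depth. It held 46219 normalized counts of Hspa5 (28518 to 32632 in the other controls), 1526 of Sdf2l1 (908 to 1012), 23233 of Pdia3 (17860 to 19390) and 9474 of Pdia4 (6975 to 7696). Chac1 was high in control 3 at 17.4 (9.27 to 10.3 in the others) and low in Ins2 5 at 1.88 (5.57 to 7.44). Xbp1 was high in Ins2 2 at 4425 (2766 to 3338).

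In hypothalamus, Atf6 was high in control 1 at 1176 (972 to 1020), Atf4 in control 4 at 3944 (3635 to 3723) and Derl1 in control 3 at 4525 (3930 to 4094). Xbp1 was low in control 3 at 3694 (3877 to 3940).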

How the results depend on the processing

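No member was called in either tissue, in the tissue difference or among the Hspa5 correlations under any alternative run; the smallest adjusted p of a member was 0.223 in choroid plexus (without Ins2 replicate 2) and 0.121 in hypothalamus (replicate block). Counts over all genes moved more. Choroid plexus had 2 genes called, and 1 with a mean of at least 50, 34 with DESeq2, 6 with array weights and 1 to 4 when a library was left out. Hypothalamus had 0, and 41 with DESeq2, 57 with the replicate block and 0 to 18 when a library was left out (18 without control 6). The tissue difference had 15, and 2 in 1 fit over both tissues, 4 with equal totals and 2 to 44 when a library was left out (44 without hypothalamus control 6). The cause of these shifts was not tested. Members below 0 in choroid plexus, an alternative added after seeing the data, numbered 16 (without control 2) to 31 on leaving out a library and 22 with equal totals.

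Log2 fold changes near 0 changed sign in choroid plexus for Dnajb9 (0.0015 with edgeR, 0.013 with equal totals, 0.0097 with the replicate block), Creld2 (-0.0029 with DESeq2), Manf (0.0014 with equal totals, 0.020 with array weights, 0.012 with the replicate block) and Atf4 (-0.031 with the replicate block), and in hypothalamus for Manf (0.0026 with array weights) and Creld2 (0.051 with the replicate block). Leaving out single libraries gave -0.14 to 0.056 for Hspa5, -0.15 to 0.063 for Sdf2l1, -0.051 to 0.030 for Dnajb9, -0.066 to 0.11 for Creld2, -0.11 to 0.12 for Manf and -0.031 to 0.058 for Atf4 in choroid plexus. In hypothalamus the ranges were -0.11 to 0.035 for Creld2, -0.0057 to 0.14 for Sdf2l1 and -0.025 to 0.013 for Manf.

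No pairing by replicate number was seen in the values: deviations of same-numbered libraries correlated at -0.15 to 0.14 over 5 choroid plexus pairs, with 1 above 0.1, and at -0.070 to 0.0089 over 4 hypothalamus pairs. Weak correlations cannot exclude that libraries were paired. The numbers were those of the sample titles, and in hypothalamus the column headers number some libraries differently. Of 10 and 8 libraries, 2 and 0 correlated best with their own number. DESeq2 gave no adjusted p for Ins2 or for the members named above as lacking one.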
